A study of Mus musculus with 2 samples.

Results

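Total RNA was sequenced from embryonic facial prominences of B6NCrl mice at embryonic day 11.5, the swellings of neural crest mesenchyme and ectoderm that grow into the upper face and jaws. There were 2 libraries, each labelled as a biological replicate of a single group of healthy tissue, with no treatment and no second genotype. For library 2 tissue of 88 embryos was pooled and for library 1 that of 109, both sexes together. Each library started with 10 ng of RNA, size-selected above 200 nt, to which synthetic spike-in RNAs were added. The genes described are 10 genes of the heart muscle cell, out of 43346 genes quantified, of which 9 encode parts of the sarcomere and 1, Nppa, encodes a natriuretic peptide. They were selected by symbol, with their levels and ratios in these files already known. Their levels and the ratio between the libraries are therefore a description of these 2 libraries, with no test.

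The sarcomere is the contractile unit of striated muscle. Thick filaments carry myosin, in which each heavy chain binds an essential and a regulatory light chain, and slide along thin filaments of actin on which the troponin complex sets the response to calcium. The mouse heart uses different genes for these parts in its chambers. Myl7 (regulatory light chain), Myl4 (essential light chain) and Nppa (atrial natriuretic peptide, a secreted hormone that acts on the kidney and vessels) mark atrial muscle in the mature heart. Myh6 (alpha myosin heavy chain) is grouped with them for the fetal heart, where it is mostly atrial, but after birth it becomes the main heavy chain of mouse ventricles too. Myl2 (regulatory light chain), Myl3 (essential light chain) and Myh7 (beta myosin heavy chain) mark ventricular muscle of the fetus. Actc1 (cardiac alpha actin), Tnnt2 (the troponin subunit that binds tropomyosin) and Tnnc1 (the troponin subunit that binds calcium) serve both chambers. The division is not complete in the embryo, where Myl7, Myh6 and Nppa are also transcribed in ventricles. Several members are not confined to the heart either: Actc1, Myl4 and Tnnt2 are used by embryonic skeletal muscle, and Myl2, Myl3, Myh7 and Tnnc1 by slow skeletal fibres.

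The library totals were close, at 31600302 expected counts in library 2 and 30849058 in library 1, and spike-ins took 15.8% of the TPM (a level per transcript length, scaled to a fixed total) in library 2 and 15.4% in library 1. Of the genes that define facial mesenchyme, 6 of 6 were at 1 TPM or more in both libraries, with Msx1, a homeobox regulator of facial outgrowth, at 248 TPM in library 2 and 278 TPM in library 1. Globin genes of primitive red cells were abundant, and Hbb-y stood at 6803 TPM in library 2 and 7385 TPM in library 1. The heart is not part of the labelled tissue.

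All 10 members were transcribed, and 9 of them reached 1 TPM in both libraries. Myh6 was the exception, with 2.17 TPM in library 2 and 0.47 TPM in library 1. Actc1 (chr2:114047282-114053548, minus strand, mm10) was the most abundant, with 87.0 TPM in library 2 and 43.3 TPM in library 1, or 65.2 ± 30.9 (SD, n = 2). Its lower library still exceeded the higher library of Myl2, the next gene in order of mean level. Each of the other 8 pairs of neighbours in that order overlapped between libraries, so the order below Actc1 is not resolved beyond the spread. Summed over the 10 members, the level was 212 TPM in library 2 and 79.6 TPM in library 1.

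**Figure D1:**
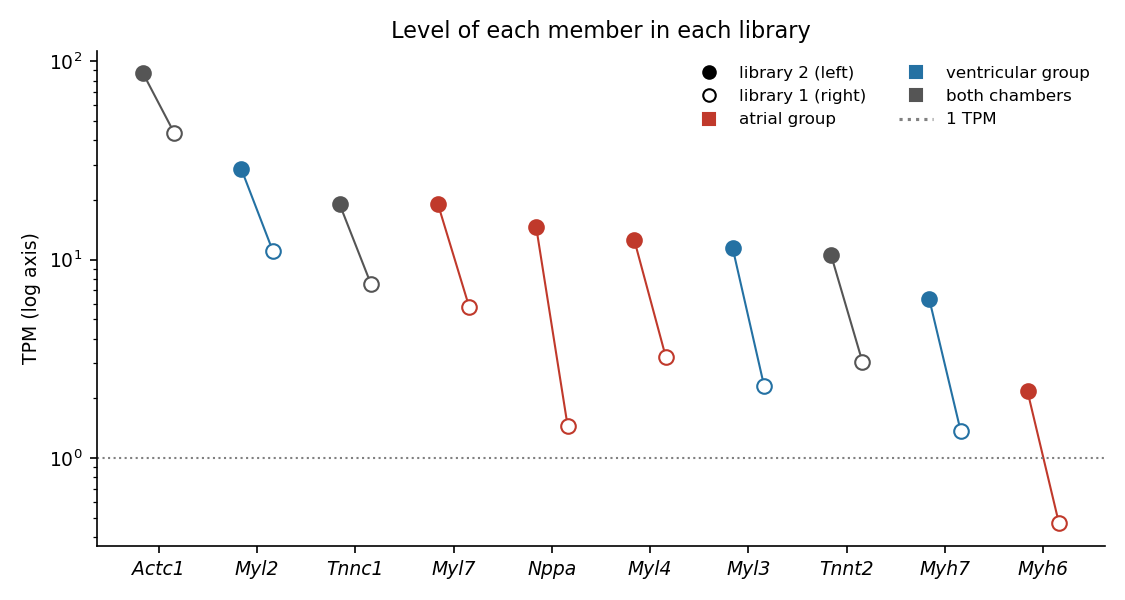
Level of each member in TPM on a log axis, with library 2 as a filled point on the left and library 1 as an open point on the right, coloured by chamber; there are no error bars because each point is 1 library. Every member is higher in library 2, Actc1 leads in both libraries, and Nppa has the steepest line, at 14.7 TPM in library 2 and 1.46 TPM in library 1.

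Every member was higher in library 2. Ratios are given as library 2 over library 1 in expected counts scaled by TMM, with an exact 95% interval (Clopper-Pearson, on the share of a gene's 2 counts that fell to library 2), which covers counting error only. All 10 intervals lay above 1, where 21.2% of the 16671 genes with at least 20 counts did, and all 10 ratios were at least 2, where 2.03% of those genes were. The median ratio of the members was 3.59 and that of their log2 ratios 1.83, beside a median log2 ratio of 0.0025 over all genes. The central 95% of all genes ran from 0.471 to 1.86, and every member lay above it. These shares set the scale and show nothing further about the members, which were chosen by such ratios. In bulk tissue, fewer cells of a type and less RNA per cell cannot be told apart.

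Among the atrial members, Nppa (chr4:148000722-148002079, plus strand) stood apart from all others. It had 235 counts in library 2 and 23.0 in library 1, a ratio of 10.2 (6.66 to 16.5), which ranked 9 of 14112 genes that averaged 1 TPM or more and had 20 counts. It ranked 1 of the 13339 that also had 50 counts and reads assigned with a posterior SD of at most 10% of the count, a filter added after the values were seen. Myh6 (chr14:54941921-54966927, minus strand) had 260 counts in library 2 and 57.1 in library 1, a ratio of 4.57 (3.42 to 6.19). Myl4 (chr11:104550663-104595753, plus strand) had 12.5 TPM from 196 counts in library 2 and 3.23 TPM from 52 counts in library 1, a ratio of 3.78 (2.77 to 5.23). Myl7 (chr11:5896637-5898782, minus strand) had 19.1 TPM in library 2 and 5.76 TPM in library 1, the highest level of the 4 atrial members in each library, at a ratio of 3.39 (2.51 to 4.62). Their means were 8.07 ± 9.35 TPM for Nppa, 1.32 ± 1.20 for Myh6, 7.87 ± 6.55 for Myl4 and 12.4 ± 9.45 for Myl7 (SD, n = 2).

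The ventricular members had ratios between 3.09 and 4.98, without a gene as high as Nppa. Myl3 (chr9:110741861-110769798, plus strand) had 11.4 TPM from 184 counts in library 2 and 2.31 TPM from 37 counts in library 1, a ratio of 4.98 (3.48 to 7.30). Myh7 (chr14:54970684-54994626, minus strand) had the best counted ratio of the myosin genes, 4.69 (3.97 to 5.57), from 795 counts in library 2 and 170 in library 1. Its level per transcript length was nonetheless low, at 6.34 TPM in library 2 and 1.37 TPM in library 1. Myl2 (chr5:122100951-122113472, plus strand) was the most abundant myosin gene of the set, at 28.7 TPM in library 2 and 11.1 TPM in library 1, and had the lowest ratio among the 7 chamber genes, 3.09 (2.47 to 3.90). Their means were 6.87 ± 6.45 TPM for Myl3, 3.86 ± 3.51 for Myh7 and 19.9 ± 12.4 for Myl2 (SD, n = 2).

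Tnnc1 and Actc1, of the 3 members that serve both chambers, had the lowest ratios of the set. Tnnt2 (chr1:135836354-135852260, plus strand) had 10.6 TPM in library 2 and 3.06 TPM in library 1, a ratio of 3.40 (2.59 to 4.53), which lies among the chamber genes. Tnnc1 (chr14:31208312-31211729, plus strand) had 19.1 TPM in library 2 and 7.53 TPM in library 1, a ratio of 2.57 (2.02 to 3.29). Their means were 6.83 ± 5.33 TPM for Tnnt2 and 13.3 ± 8.16 for Tnnc1 (SD, n = 2). Actc1 had 2496 counts in library 2 and 1221 in library 1, and its ratio of 2.05 (1.91 to 2.19) was the lowest of the 10 and the most tightly bounded.

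**Figure D2:**
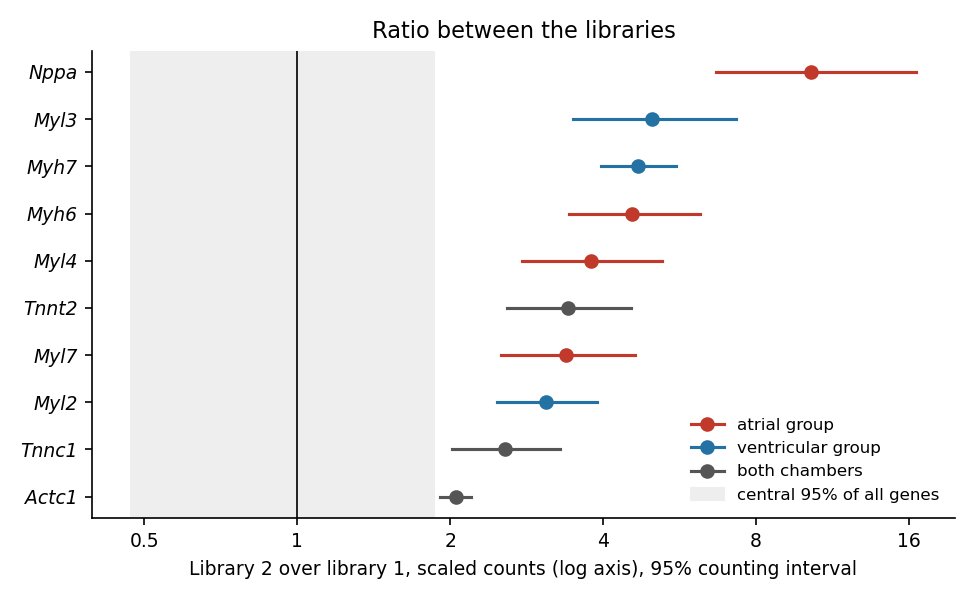
Ratio of library 2 over library 1 in scaled counts (log axis) for each member, with bars for the 95% counting interval and the grey band for the central 95% of all genes with at least 20 counts (0.471 to 1.86). Nppa lies to the right at 10.2, Actc1 and Tnnc1 to the left at 2.05 and 2.57, and the other 7 members between 3.09 and 4.98.

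The ratios differed among the members by more than counting error in 22 of 45 pairs, judged by the exact 95% interval of the ratio of 2 ratios (a conditional odds ratio). These intervals cover counting error, which ordinary genes also exceeded between these libraries, so the counts of pairs describe the members and are no result about them. Nppa exceeded each of the 9 others, and its ratio was 2.05 times (1.14 to 3.75) that of Myl3, the next in order. Of the 9 comparisons with Actc1, the other member was higher in 8, and Tnnc1 was the member whose interval held 1, at 1.25 times (0.976 to 1.62). Among the 8 members without Nppa and Actc1, 6 of 28 pairs differed, in which Myl3, Myh7 and Myh6 each exceeded Myl2 and Tnnc1. Between neighbours in the order of the ratios, Nppa over Myl3 was the 1 pair of 9 whose interval lay above 1. The pairs are not adjusted for their number and were chosen together with the genes.

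Each atrial gene was next set against its ventricular counterpart within a library, where both genes share the library and its depth. The level of Myl7 was 0.667 times that of Myl2 in library 2 (0.556 to 0.799) and 0.519 times in library 1 (0.370 to 0.723), so the ventricular regulatory light chain led in each at gene level, though not in library 1 when dominant coding transcripts alone were compared, as described with the transcripts. Myl4 stood at 1.09 times Myl3 in library 2 (0.890 to 1.35) and 1.40 times in library 1 (0.900 to 2.19), so neither essential light chain led by more than counting error. Myh6 stood at 0.342 times Myh7 in library 2 (0.296 to 0.394) and 0.343 times in library 1 (0.247 to 0.461). The mean of this ratio over both libraries was 0.343, against 0.621 when posterior mean TPM was used, so its size depends on the estimate of TPM. The posterior mean gives part of the Myh6 level to transcripts with almost no counts. In library 2, for example, Myh6-202 received 14.3% of it with 0.09 counts.

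In gene-level counts, the balance within these 3 pairs of chains did not differ detectably between the libraries. The odds ratio, library 2 over library 1, was 1.09 (0.748 to 1.61) for Myl7 over Myl2, 0.758 (0.461 to 1.24) for Myl4 over Myl3 and 0.975 (0.694 to 1.38) for Myh6 over Myh7. These intervals leave room for shifts of up to 1.61 upward in the first pair and to 0.461 downward in the second, so equal balance was not shown. Nppa over Myl2 behaved otherwise, at 0.512 in library 2 (0.431 to 0.608) and 0.132 in library 1 (0.0800 to 0.209), with an odds ratio of 3.31 (2.02 to 5.62). From dominant coding transcripts, the TPM ratio of Myl7 over Myl2 was 0.816 in library 2 and 1.34 in library 1. That of Myl4 over Myl3 was 0.745 in library 2 and 1.59 in library 1. No interval was computed for these transcript ratios. Summed counts gave a ratio of 4.68 (3.99 to 5.50) for the 4 atrial members and 4.19 (3.70 to 4.76) for the 3 ventricular ones, whose intervals overlap. For the 3 shared members it was 2.15 (2.02 to 2.29). By the median ratio the order of the chambers was the reverse, with 4.17 for atrial, 4.69 for ventricular and 2.57 for shared members. The atrial sum includes Nppa, and Actc1 held 2496 of the 2973 shared counts in library 2 and 1221 of 1385 in library 1. The sums are therefore not a trait of each class.

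**Figure D3:**
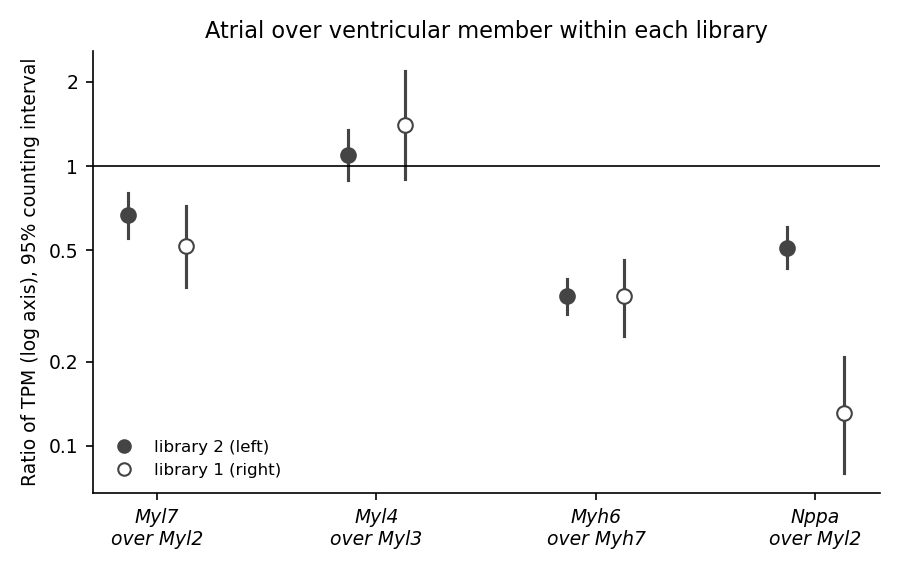
Level of the atrial over the ventricular member (ratio of TPM, log axis) within library 2 (filled, left) and library 1 (open, right), with 95% counting intervals. The intervals of the libraries overlap in the 3 pairs of myosin chains, while those of Nppa over Myl2, 0.512 and 0.132, do not.

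Summed by role, the regulatory light chains stood at 47.8 TPM in library 2 and 16.9 TPM in library 1. The essential light chains stood at 23.9 TPM in library 2 and 5.54 TPM in library 1, and the heavy chains at 8.51 TPM in library 2 and 1.84 TPM in library 1. Regulatory light chain RNA was thus 5.62 times the summed Myh6 and Myh7 RNA in library 2 and 9.16 times in library 1. Essential light chain RNA was 2.81 times that sum in library 2 and 3.01 times in library 1. The heavy chain sum leaves out those of skeletal muscle, such as Myh3, at 4.87 TPM in library 2 and 2.41 TPM in library 1. Several light chain and thin filament members are also used by skeletal muscle, so these ratios are not proportions within heart muscle. The regulatory sum includes Myl2-210, a transcript with no coding sequence, at 4.14 TPM in library 2 and 6.38 TPM in library 1. The coding Myl2-201 had 23.4 TPM in library 2 and 4.29 TPM in library 1. The regulatory ratios therefore depend on how Myl2 reads were divided among transcripts. The thin filament members stood at 117 TPM in library 2 and 53.9 TPM in library 1. That was 13.7 times the sum of Myh6 and Myh7 in library 2 and 29.3 times in library 1. Within the thin filament, Tnnt2 over Tnnc1 had an odds ratio between libraries of 1.33 (0.912 to 1.93) and Actc1 over Tnnc1 one of 0.798 (0.617 to 1.02), both with 1 inside the interval.

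The pair of heavy chain genes lie next to each other on chromosome 14 and are close copies, which bears on how their reads are divided. Over their coding sequences in GENCODE M21, of 5814 bases in Myh6 and 5805 in Myh7, 91.8% of aligned positions were identical and the longest identical run was 245 bases. Of all stretches of 50 bases in the Myh6 coding sequence, 23.8% also occur in that of Myh7, and 12.0% of stretches of 100 bases. The posterior SD of the assigned reads at gene level was 1.98% of the Myh6 count in library 2 and 4.85% in library 1, and 0.674% of the Myh7 count in library 2 and 1.71% in library 1. The 60 coding bases in which the genes differ most are shown because they are of the kind that tells the genes apart: 33 bases are identical and 27, in capitals, differ. They were read from mm10 on the minus strand, over an exon junction in each gene, exons 24 and 25 of Myh6-201 (chr14:54952303-54952599) and exons 26 and 27 of Myh7-201 (chr14:54980378-54982191).
Myh6-201: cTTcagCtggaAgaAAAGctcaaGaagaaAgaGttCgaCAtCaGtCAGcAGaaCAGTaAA
Myh7-201: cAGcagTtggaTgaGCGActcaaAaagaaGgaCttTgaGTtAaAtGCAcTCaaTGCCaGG

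Most members were read from a single dominant transcript, the one with the largest IsoPct (the percentage of the gene's TPM assigned to a transcript by the authors' quantification). Nppa and Myl7 have 1 annotated transcript. Actc1-201 took 100% of its gene in each library, Tnnc1-202 96.6% in library 2 and 100% in library 1, and Myh7-201 98.5% in library 2 and 100% in library 1. Myh6-201 took 95.9% in library 2 and 100% in library 1, but 59.0% in library 2 and 37.25% in library 1 by the deposited posterior mean IsoPct. Myl3-201 took 71.9% in library 2 and 75.3% in library 1, with most of the rest in the shorter Myl3-202. The dominant transcript was the same in both libraries in 8 of 10 members, and Myl2 and Tnnt2 were the others. By the largest expected count it was the same in 9, with Myl2-201 as that of Myl2 in both libraries.

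For Myl2, the coding transcript Myl2-201 held 81.7% in library 2 and 38.7% in library 1. Myl2-210, annotated as a processed transcript with no coding sequence, held 14.4% in library 2 and 57.5% in library 1. In reads, Myl2-201 had 275 in library 2 and 49.5 in library 1, a ratio of 5.57 (4.10 to 7.70) that exceeds the 3.09 of the whole gene. Myl2-210 had 31.8 reads in library 2 and 48.1 in library 1, a ratio of 0.662 (0.409 to 1.06). The odds of Myl2-201 over Myl2-210 were 8.19 times higher in library 2 (4.64 to 14.7) by counting error, but the division of reads adds its own error, with posterior SDs for Myl2-210 of 20.0 reads in library 2 and 10.5 in library 1. Of the 467 bases of Myl2-210, 417 lie in exons of Myl2-201 (662 bases) and 50 lie outside them, in a first exon at chr5:122103181-122103230. Myl2-204, another processed transcript, starts nearby at chr5:122103179 and was not compared. It had 0 expected counts in both libraries. The first exon of Myl2-210 is printed because it holds the sequence that separates it from Myl2-201. Beside it is the second exon of Myl2-201 (chr5:122101749-122101838, 90 coding bases), which Myl2-210 lacks. Both are on the plus strand of mm10 in GENCODE M21.
Myl2-210 first exon: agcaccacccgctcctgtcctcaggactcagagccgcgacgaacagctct
Myl2-201 second exon: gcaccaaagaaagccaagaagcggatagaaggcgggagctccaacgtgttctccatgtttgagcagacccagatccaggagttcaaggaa

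The choice of transcript reached the gene level. Myl2-210 is shorter, so a read given to it adds more to the Myl2 TPM. The Myl7 over Myl2 ratio taken from the dominant coding transcripts was 0.816 in library 2 and 1.34 in library 1, so Myl7 led in library 1 on that measure. Between Myl4-202 and Myl3-201 the ratio was 0.745 in library 2 and 1.59 in library 1. Nppa over Myl2-201 was 0.627 in library 2 and 0.340 in library 1, still higher in library 2.

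The 15 annotated transcripts of Tnnt2, a gene with many splice forms that follow age and muscle type, were not well separated. Tnnt2-207 held 61.5% in library 2 and 38.3% in library 1, and Tnnt2-205 was listed at 0 in library 2 and at 41.0% in library 1. The posterior SDs were 27.4 reads on 136 for Tnnt2-207 in library 2 and 9.12 reads on 27.5 for Tnnt2-205 in library 1. Myl4-202 held 49.0% in library 2 and 86.0% in library 1, and Myl4-201, which starts upstream, held 26.6% in library 2, where its posterior SD was 30.8 reads on 54.2, and was listed at 0 in library 1. At these depths a difference in the transcripts of Tnnt2 and Myl4 was not resolved.

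**Figure D4:**
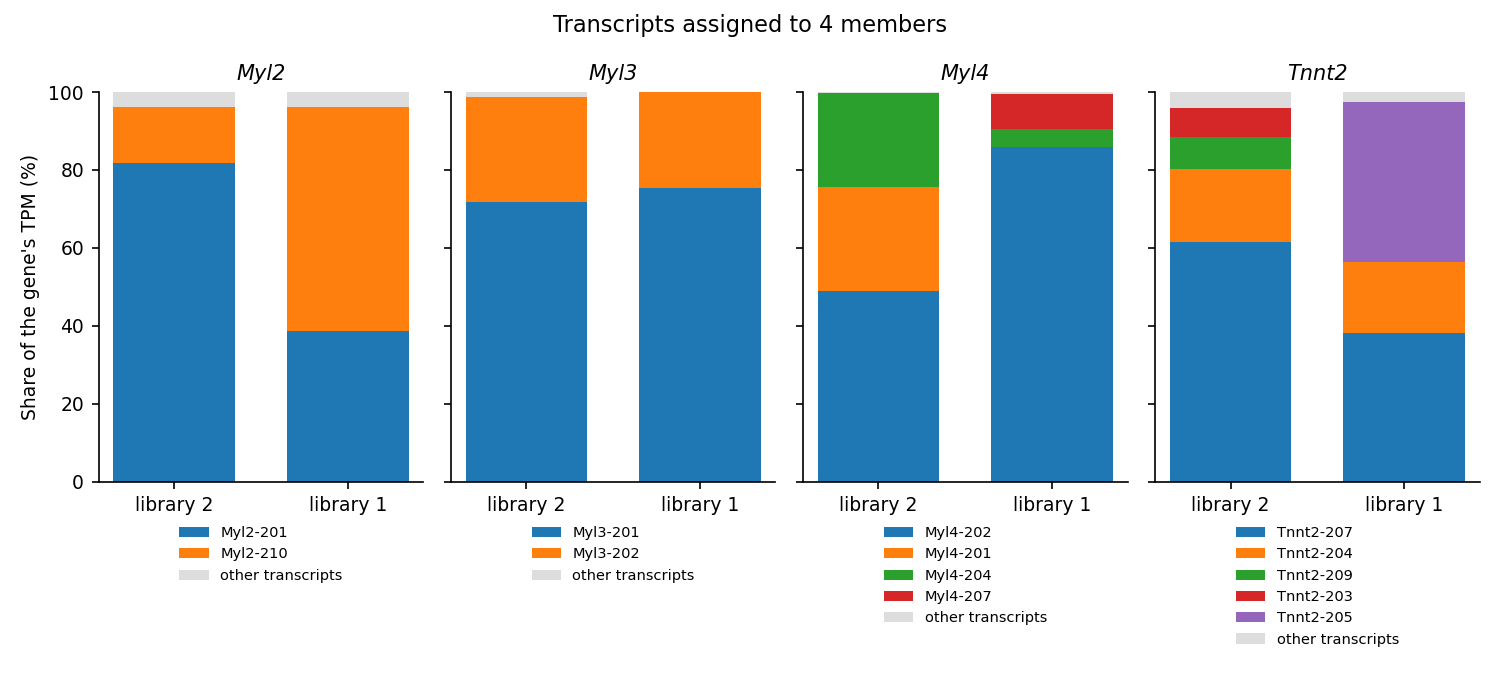
Share of each gene's TPM (%) given to its transcripts in library 2 (left bar) and library 1 (right bar) for the 4 members with more than 1 substantial transcript, with the rest in grey. Myl2-201 takes 81.7% in library 2 and 38.7% in library 1, while the shares of Myl3 stay close. No error is drawn although the posterior SDs of Myl2-210, Tnnt2 and Myl4 are large.

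The sequence upstream of the start is described for the members, and its part in their ratios was not tested. RefSeq (GRCm38.p6, the build of mm10) lists a start within 50 nt of the dominant transcript's start for 7 members, Actc1, Myl3, Myl7, Tnnc1, Nppa, Myh6 and Myh7, and the 250 bases before it were searched on both strands. A CArG box, bound by serum response factor, was found in 3 of the 7, against 1.47% of 32851 promoters. The motif TATAAA was found in 1 of 7, Nppa, against 12.4%, and AAGTG, the core bound by NKX2-5, in 4 of 7, against 40.7%. For the zinc finger factors that include Gata4 the letters AGATAA were searched, which were in 0 of 7, against 9.99%. The MEF2 site was in 0 of 7, against 2.92%. A count of 0 says no more than that these letters are not in these windows. No searched motif overlaps another as printed. A match is a description of the sequence and not a bound site.

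The 50 bases around the CArG box, in capitals, are shown for the 3 members that hold it, to set its letters and its distance from the start side by side. Its first base lies 61 bases before the start in Myl7 (chr11:5898814-5898863, minus strand), 85 in Myl3 (chr9:110763573-110763622, plus strand) and 47 in Actc1 (chr2:114052893-114052942, minus strand).
Myl7: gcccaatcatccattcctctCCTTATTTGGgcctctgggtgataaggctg
Myl3: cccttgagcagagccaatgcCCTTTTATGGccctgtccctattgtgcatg
Actc1: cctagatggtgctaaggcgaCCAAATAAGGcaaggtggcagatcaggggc

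The promoter of Nppa is shown whole because Nppa has the highest ratio and the lone TATAAA. It covers chr4:148000472-148000721 on the plus strand, with TATAAA, whose first base lies 9 bases before the RefSeq start, and 2 copies of AAGTG, 239 and 65 bases before it, in capitals.
Nppa: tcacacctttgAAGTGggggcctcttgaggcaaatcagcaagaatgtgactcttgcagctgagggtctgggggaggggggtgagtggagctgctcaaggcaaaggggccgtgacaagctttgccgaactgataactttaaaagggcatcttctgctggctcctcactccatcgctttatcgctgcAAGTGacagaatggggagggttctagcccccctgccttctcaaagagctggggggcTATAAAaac

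Genes that overlap a member were counted, since no source used here says whether the counting used strand, and reads from opposite strands cannot then be told apart. Of 14 overlapping genes, 6 share exonic bases with a member. The antisense gene Gm13054 covers 532 exonic bases of Nppa and had 4.30 counts in library 2 and 2.03 in library 1. Mhrt, an antisense RNA of the Myh7 locus, had 1.77 counts in library 2 and 0 in library 1 over 484 shared bases. Pth1r, a receptor for parathyroid hormone, shares 95 bases with Myl3 and had 1202 counts in library 2 and 1298 in library 1, more than Myl3 in each. Nisch, on the strand opposite to Tnnc1, shares no exonic base and had 11888 counts in library 2 and 13182 in library 1. The microRNA genes within introns of Myh6 and Myh7, Mir208a and Mir208b, had 0 counts in both libraries, which for RNA selected above 200 nt does not measure them.

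Other contractile and sarcomere genes of the heart were partly on the side of library 2. Of 20 genes listed, 9 were detected in both libraries and 18 had at least 20 counts. The interval lay above 1 for 15 of the 18 and below 1 for 0, with a median ratio of 1.73. Over all genes, 21.2% of intervals lay above 1 and 18.7% below. Mybpc3, cardiac myosin-binding protein, had 102 counts in library 2 and 16 in library 1, a ratio of 6.39 (3.75 to 11.6). Smpx, a small muscle protein, followed at 5.45 (2.65 to 12.6), Ankrd1, an ankyrin repeat protein of the sarcomere, at 5.09 (2.78 to 10.1), Tnni3, the troponin inhibitory subunit of the mature heart, at 3.88 (2.43 to 6.43), and Csrp3, a protein of the Z disc, at 3.78 (2.02 to 7.59). Actn2, the actinin of the Z disc, Casq2, the calcium store protein, and Ldb3 lay at 2.47, 2.36 and 2.12. The 2 genes of the list with the highest levels barely differed: Tpm1, a tropomyosin also made outside muscle, at 1.07 (1.04 to 1.09) and Atp2a2, the calcium pump of many cell types, at 1.08 (1.03 to 1.14).

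The inhibitory troponins differed in balance. Tnni1, the form of the embryonic heart and of slow skeletal muscle, had 14.4 TPM in library 2 and 9.39 TPM in library 1, a ratio of 1.63 (1.35 to 1.97). Tnni3 stood at 0.539 times Tnni1 in library 2 and 0.214 times in library 1, with an odds ratio of 2.37 (1.43 to 4.08). Nppb, the second natriuretic peptide gene, had 11 counts in library 2 and 6 in library 1, too few for a ratio.

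Cardiac regulators, as a list, had a median ratio near 1. Of 16 genes, 15 had at least 20 counts, with 4 intervals above 1, 2 below and a median ratio of 1.05. The shares over all genes were 21.2% above and 18.7% below. Gata4, a zinc finger factor of heart and foregut, was at 3.01 (1.57 to 6.14) from 39 counts in library 2 and 13 in library 1, and Smyd1, a methyltransferase of striated muscle, at 2.57 (1.69 to 3.99). Isl1, of second heart field progenitors and of other embryonic cells such as cranial neurons, had 43.5 TPM in library 2 and 54.9 TPM in library 1, a ratio of 0.908 (0.855 to 0.965). Mef2c and Nr2f2, regulators with wide expression in the embryo, lay at 1.03 (0.947 to 1.12) and 1.08 (1.03 to 1.13). Nkx2-5, chosen after its values were seen because it defines cardiac muscle progenitors, had 40 counts in library 2 and 49 in library 1, a ratio of 0.818 (0.525 to 1.27). Regulators with an interval apart from 1 that are not named above went both ways, Tbx20 at 1.61 (1.08 to 2.41) and Hand1 at 0.706 (0.592 to 0.840). Of 8 secreted and conduction genes, 1 of 6 measured had an interval above 1, with a median ratio of 1.00. The 3 with the highest levels were Tbx3, a repressor of working muscle genes in conduction tissue, at 0.988 (0.933 to 1.05), Corin, the protease that processes the Nppa product, at 1.01 (0.856 to 1.20) and Gja5, a gap junction gene of atria and arteries, at 0.805 (0.634 to 1.02). Tbx3 had 24.5 TPM in library 2 and 26.3 TPM in library 1, beside a median of 0.858 TPM over the list. Whether its RNA came from conduction tissue was not tested. Bmp10, a signal of embryonic heart muscle, had 0 counts in both libraries, which allows up to 0.118 TPM in library 2 and 0.120 TPM in library 1.

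**Figure D5:**
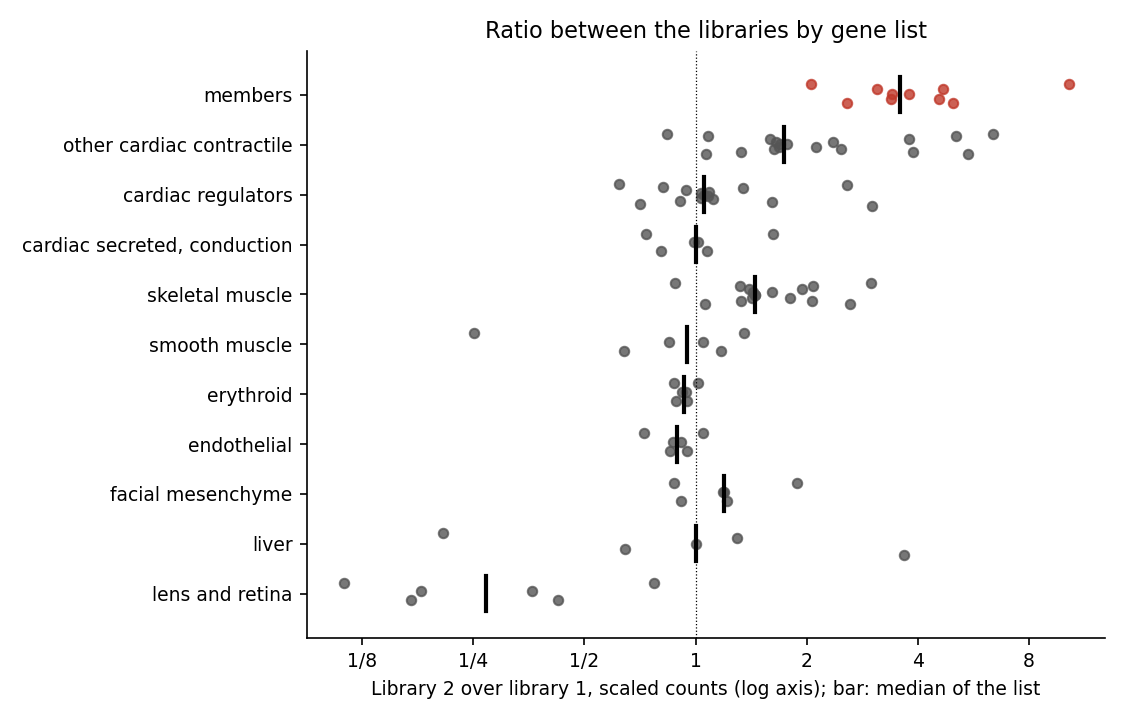
Ratio of library 2 over library 1 in scaled counts (log axis) of each gene with at least 20 counts, by gene list, with a bar at each list's median. Members have a median of 3.59, other cardiac contractile genes 1.73 and skeletal muscle genes 1.45, while cardiac regulators lie about 1.05 and lens and retina genes about 0.271.

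Markers of other cells that the dissection could hold moved as follows, and their part in the members' ratios was not tested. Of 18 skeletal muscle genes, 14 were detected in both libraries and the interval lay above 1 for 12 of 16 measured and below for 0. Over all genes, 21.2% lay above 1 and 18.7% below. The median ratio was 1.45, with summed levels of 142 TPM in library 2 and 102 TPM in library 1. 4 skeletal muscle genes were at least 2-fold higher in library 2, where 2.03% of all genes were. These were the embryonic and perinatal myosin heavy chains Myh3 at 2.06 (1.79 to 2.38) and Myh8 at 2.99 (2.00 to 4.56), the fast troponin gene Tnnc2 at 2.62 (1.81 to 3.86) and the skeletal actin gene Acta1 at 2.08 (1.64 to 2.66). The commonest, Tnnt1 (slow troponin), lay at 1.39 (1.25 to 1.55), and Myog, a myogenic regulator, at 1.32 (1.14 to 1.53). Mylpf, the fast regulatory light chain, lay at 1.45 (1.16 to 1.83) in counts although its TPM was 13.7 in library 2 and 14.1 in library 1. Actc1 stood at 11.3 times Acta1 in library 2 and 11.5 times in library 1, with an odds ratio of 0.984 (0.762 to 1.26), so a difference in the proportion of cardiac to skeletal actin RNA was not detectable at this depth. Without Actc1, the summed ratio of the members was 4.01 (3.69 to 4.38) in place of 2.74 (2.60 to 2.89).

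Erythroid and endothelial genes lay on the side of library 1, and smooth muscle genes were divided. The interval lay below 1 in 4 of 6 erythroid genes and 4 of 6 endothelial genes and above 1 in 0 of either, where 18.7% of all genes had an interval below 1. Their median ratios were 0.930 and 0.892, and their summed levels ran to 11954 TPM in library 2 and 13029 TPM in library 1 for erythroid genes and 128 TPM in library 2 and 153 TPM in library 1 for endothelial genes. In smooth muscle 1 of 6 intervals lay above 1 and 2 below, with a median ratio of 0.946 but a ratio of summed counts of 1.11 (1.05 to 1.18), and summed levels of 65.2 TPM in library 2 and 59.5 TPM in library 1. Acta2 (smooth muscle actin) lay at 1.17 (1.09 to 1.25) and Myh11 (smooth muscle myosin) at 0.250 (0.106 to 0.530). Genes of lens and retina had the lowest median ratio of these lists, 0.271, with 6 of 6 intervals below 1 and 5 of 6 ratios at or under 1/2, where 2.86% of all genes were, at 55.4 TPM summed in library 2 and 248 TPM in library 1. The lens gene Cryaa lay at 0.111 (0.0983 to 0.126). Liver genes had a median ratio of 1.00 and were at 8.80 TPM summed in library 2 and 14.6 TPM in library 1. Ttr made up 1.63 TPM of that sum in library 2 and 8.01 TPM in library 1, at a ratio of 0.207 (0.142 to 0.295). Alb lay at 3.67 (1.44 to 11.1) from 22 counts in library 2 and 6 in library 1. Afp lay at 1.29 (0.978 to 1.71) and Apoa2 at 1.00 (0.529 to 1.90). In facial mesenchyme, 4 of 6 intervals lay above 1 and 2 below, with a median ratio of 1.19, where 21.2% of all genes had an interval above 1.

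The non-members with the highest ratios were looked up by a fixed rule, which ranks by the ratio and not by closeness to the members. The 8 with the highest ratios, at a mean of 1 TPM and 50 counts or more, were Mrip-ps, Gm13304, Gm7336, Gm2423 and Gm12671, which had 0 counts in library 1, and Tom1, Rsc1a1 and mt-Nd4l. Their posterior SDs were large, for example 38.8 on 128 counts of Gm13304 in library 2 and 77.2 on 11.8 counts of Tom1 in library 1. Restricted to genes with a posterior SD of at most 10% of the count, a step added after the values were seen, the 8 were Smpx, Ankrd1, Cnpy1, Tnni3, Csrp3, Ttll11, C1qtnf3 and Mymx, at ratios between 5.45 for Smpx and 3.12 for Mymx. Of these, Smpx, Ankrd1, Tnni3 and Csrp3 were already in the list of cardiac contractile genes. Nppa was followed in the order of ratios over all 14112 genes ranked by Myl3 at rank 16, and the members ended with Actc1 at rank 92. These ranks rest on the ratios by which the members were chosen.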

How the data were processed

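Both libraries were quantified by the authors against GENCODE M4 on mm10 from an alignment to the transcriptome, per the deposited notes; no source used here names the aligner, the quantifier's version or the strand setting. The deposited expected counts are the authors' estimated reads without normalization, per the file headers. TPM and FPKM are levels per length that the authors computed over all entries with spike-ins included, and IsoPct is a deposited percent of a gene's TPM. Posterior SDs of counts were also deposited. Symbols and positions came from GENCODE M21 (42462 of 43346 genes named), and all 10 members were found.

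Expected counts were scaled by TMM (edgeR 4.0.16, R 4.3.3). Ratios need 20 counts over both libraries and carry exact 95% intervals (SciPy 1.17.1, tested on simulated data). Without molecular identifiers, reads may repeat a molecule, so intervals cover counting error only. A count of 0 allows 3 counts. The median log2 ratio used a prior count of 0.5. Motifs were searched with Biopython 1.88. With 1 group there was no test between conditions and no p-value. The labels give the libraries as biological replicates from separate pools, and the files were not copies (chi-square per degree of freedom 8.35 over 18131 genes). Alternatives were DESeq2 1.42.0 size factors, count and spike-in totals, posterior means, FPKM, other thresholds, dominant transcripts and leaving out each library. Names were drawn from all members, the 3 highest genes of each other list with any gene at least 2-fold either way, the 8 non-members with the highest ratios and overlapping genes. Nppb, Bmp10, Nkx2-5, Tbx20 and Hand1 were named outside this rule. Members and lists were chosen with earlier results of these data known.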

Additional observations from a re-analysis of the deposited data

How the results depend on the processing

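All 10 members kept an interval above 1 under DESeq2 size factors, totals of gene or spike-in counts, posterior mean counts and no filter. The median log2 ratio of the members ran between 1.76 with a prior count of 5 and 1.83. Left without Actc1 and Tnnc1, an alternative chosen after seeing the data, it was 2.04, and without Nppa, also chosen after seeing the data, 1.76. The number of members detected was 4 at a threshold of 5 TPM in place of 1 TPM, and leaving out a library gave 9 to 10. Mean Myl7 over Myl2, 0.593 at gene level, was 1.08 from dominant transcripts. Mean Myh6 over Myh7, 0.343, was 0.621 with posterior mean TPM, 0.341 with FPKM and 0.338 from dominant transcripts. With 1 library left out, Myl7 over Myl2 ran from 0.519 to 0.667, Myl4 over Myl3 from 1.09 to 1.40, Myh6 over Myh7 from 0.342 to 0.343 and Nppa over Myl2 from 0.132 to 0.512. No paired analysis was possible because the labels hold 1 group and no comparison between groups. Depth limited Nppa, Myl3, Myl4, Myh6 and Myl7 most, with 23.0 to 58 counts in library 1.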
